A study of Drosophila melanogaster with 5 samples.

Results

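The 5 serotonin receptor genes of *Drosophila*, *5-HT1A*, *5-HT1B*, *5-HT2A*, *5-HT2B* and *5-HT7*, were examined in single cells harvested from the pars intercerebralis (PI), where peptide-releasing neurons lie in the dorsal brain. They were taken by name, through the gene identifiers that the study lists for them, and all 5 were present among the 17453 genes of the count tables. Each of 5 libraries was made from 1 GFP-labeled cell. The study kept 4 of them, PI cells 1 to 4, and left out the other, cell D, because its reads mapped without discrimination. Cell D is given here beside the kept cells as a single library. The flies carried either kurs58-GAL4 with UAS-mCD8::GFP or C767-GAL4 with UAS-nlsGFP, and all carried Dilp2mCherry, which marks the insulin-producing PI cells so that they could be avoided. Which driver labeled which cell, and the age and sex of these flies, are not given in the sources used here. Both drivers also label cells outside the PI. The labels give each cell its own animal identifier, whereas the series record counts 4 animals, so whether an animal gave more than 1 cell was not settled. There was 1 condition and no comparison group, so values are given cell by cell and no test between groups was run.

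Serotonin acts in the fly brain on sleep, feeding, aggression, learning and circadian entrainment through receptors that are all coupled to G proteins. 5-HT1A and 5-HT1B couple to Gi/Go proteins and lower cAMP. 5-HT2A and 5-HT2B couple to Gq and raise intracellular calcium, whereas 5-HT7 couples to Gs and raises cAMP. In the PI, 5-HT1A is known from the insulin-producing cells, the cells that the harvest was meant to avoid.

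Expression is given as log2(RPM + 1), where RPM is the number of reads of a gene per 1e6 reads assigned to genes in that library, and a gene at or above 1 RPM was counted as expressed. These reads totaled 3915694, 3451331, 4077118 and 4441952 in cells 1 to 4 and 4913151 in cell D. Ranges in parentheses are exact Poisson 95% intervals of the reads of a gene in 1 cell, on the scale of the value they follow. They cover counting error only, because amplified reads do not stand for separate molecules. For a gene with 0 reads, a limit of 3 reads was used, which is 0.766, 0.869, 0.736 and 0.675 RPM in cells 1 to 4. The exact Poisson interval of 0 reads reaches somewhat higher, to 0.942, 1.07, 0.905 and 0.830 RPM. Both cover counting error only.

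The libraries differed in cell type markers as well as in depth. Of all genes, 23.7%, 34.5%, 17.7% and 35.1% were expressed in cells 1 to 4 and 40.7% in cell D. Of 10 neuronal genes, 7, 10, 9 and 10 were expressed in cells 1 to 4 and 10 in cell D, and their summed level was 1140, 1947, 3792 and 3699 RPM in cells 1 to 4 and 14071 RPM in cell D. Cell 1 had 1 read of *elav*, 3 of *Syt1* and 0 of *brp*, all of which mark neurons, and *Syx1A* was at 0 in cell 3. The peptide gene *Dh44*, which marks a subset of the targeted PI cells, was at 17.01 in cell 3, against 6.81 to 7.43 in cells 1, 2 and 4 and 8.58 in cell D. *SIFa*, which marks another subset, had 80 reads in cell 3, 0 in cells 1, 2 and 4, and 489 in cell D. These are unstranded counts. With the reads of the 2 strands summed, *SIFa* was also expressed in cells 1 and 4. With the second counting tool, MMQuant, it was also expressed in cell 1. Of 4 peptide genes of the insulin-producing cells, 1, 2, 3 and 2 were expressed in cells 1 to 4 and 3 in cell D, and *Ilp2* had 8179 reads in cell 3 and 768 in cell D. *Dsk*, of the same list, went the other way, with 460 reads in cell 4, 1 in cell D and 0 in cells 1 to 3. Of 12 photoreceptor genes, 12, 11, 9 and 12 were expressed in cells 1 to 4 and 10 in cell D, with summed levels of 13745, 16362, 1984 and 46639 RPM in cells 1 to 4 and 588 RPM in cell D. Of these, *Rh5* was at 0 in cells 2 and 3 and *inaD* at 0 in cell 3. Of 7 fat body genes, 5 or 6 were expressed in each library, and their summed level was 9872 to 45255 RPM in cells 1 to 4 and 1009 RPM in cell D. *Fbp1* was at 0 in all 5 libraries. Of 8 glial genes, 5, 7, 4 and 6 were expressed in cells 1 to 4 and 8 in cell D, with summed levels of 1772, 3215, 754 and 5004 RPM in cells 1 to 4 and 1976 RPM in cell D. The glial gene *repo* was at 0 in cells 2 and 3, *alrm* and *wrapper* in cells 1 and 3, and *Gat* in cell 3. In contrast, *repo* had 300 reads in cell 4 and *alrm* had 101 in cell 2. With the reads of the 2 strands summed, all 8 glial genes were expressed in cell 2, so the 0 of *repo* there depended on the counting. The part of other cell types in the receptor values below was not tested.

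Of the 5 receptor genes, 3 were expressed in at least 1 of the 4 kept cells, where 44.3% of all genes were. *5-HT2A* and *5-HT1B* were found in cells 2 and 4, *5-HT7* was found in cells 1 and 3, and *5-HT1A* and *5-HT2B* stayed below 1 RPM in each of cells 1 to 4. By cell, 1, 2, 1 and 2 receptor genes were expressed in cells 1 to 4, against 23.7%, 34.5%, 17.7% and 35.1% of all genes in the same cells. Cell D expressed all 5, with 40.7% of all genes. None of the 5 was expressed in 3 or more of the kept cells, a level reached by 22.5% of all genes. With any read counted, *5-HT2A* was in 3 kept cells, through a single read in cell 1, and at a threshold of 10 RPM cell D had 4 receptor genes, without *5-HT2A* at 8.75 RPM.

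**Figure D1:**
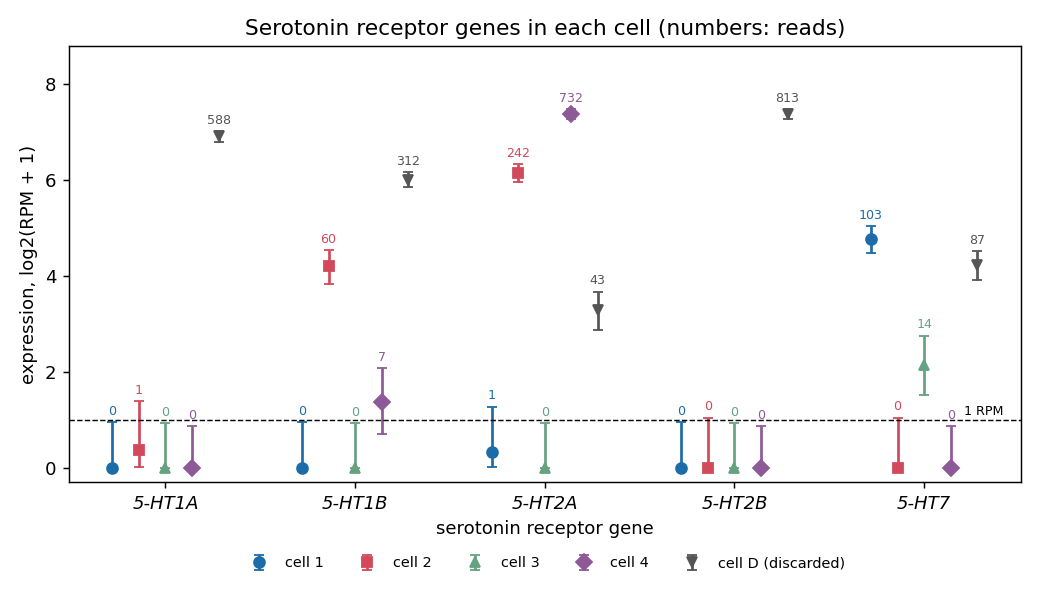
Expression of the 5 serotonin receptor genes, as log2(RPM + 1), in PI cells 1 to 4 and cell D. Points are single libraries, bars are exact Poisson 95% intervals, numbers are reads and the dashed line is 1 RPM. *5-HT2A* was high in cells 2 and 4, with 242 and 732 reads, and *5-HT7* in cell 1, with 103 reads, while *5-HT1A* and *5-HT2B* were high in cell D only.

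*5-HT2A* (FBgn0087012), one of the Gq-coupled receptors, was the serotonin receptor gene with the most reads in the kept cells and the one that the study carried into its RNAi screen. Its position in dm6 is chromosome 3R, 4612870 to 4633304, plus strand, with 5 annotated transcripts. It had 1, 242, 0 and 732 reads in cells 1 to 4 and 43 reads in cell D. Expression was thus 6.15 (5.97 to 6.33) in cell 2 and 7.37 (7.27 to 7.48) in cell 4, compared with 3.29 (2.87 to 3.68) in cell D. These 3 intervals do not overlap, so the order of cell 4, cell 2 and cell D exceeded counting error. In RPM, the level was 8.01 times that of cell D in cell 2 (5.77 to 11.4) and 18.8 times in cell 4 (13.8 to 26.2), with exact binomial 95% intervals. Cell 1 was at 0.33 (0.01 to 1.28), and cell 3, with its limit of 3 reads, was at least 11.9-fold lower than cell D. Over the kept cells the mean was 3.46 ± 3.84 (SD, n = 4), a spread larger than the mean, and it was 2.16 without cell 4.

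*5-HT2B* (FBgn0261929), the other Gq-coupled receptor, was read in cell D alone. Its position is chromosome 3R, 8578205 to 8629996, plus strand, with 3 annotated transcripts. No read was assigned to it in any of cells 1 to 4, whereas cell D had 813 reads, an expression of 7.38 (7.28 to 7.48). With the limit of 3 reads per library, it was at least 190-fold lower in cell 2 than in cell D, and at least 216-fold, 225-fold and 245-fold lower in cells 1, 3 and 4. Both members of the Gq pair were therefore read in cell D, and *5-HT2A* alone in cells 2 and 4.

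*5-HT1B* (FBgn0263116), a Gi/Go-coupled receptor known from clock neurons, was found in the same kept cells as *5-HT2A*, at lower levels. Its position is chromosome 2R, 19022325 to 19032642, minus strand, with 3 annotated transcripts. It had 0, 60, 0 and 7 reads in cells 1 to 4 and 312 reads in cell D. Cell 2 was at 4.20 (3.83 to 4.55) and cell 4 at 1.37 (0.71 to 2.09), both below cell D at 6.01 (5.85 to 6.17). The level in RPM was 0.274 times that of cell D in cell 2 (0.204 to 0.362) and 0.0248 times in cell 4 (0.00990 to 0.0517). Cell 4 had 1.58 RPM (0.634 to 3.25), an interval that includes the threshold. With a denominator of all uniquely mapped reads, it was at 0.906 RPM in cell 4 and was no longer counted. The mean over the kept cells was 1.39 ± 1.98 (SD, n = 4) and 0.46 without cell 2.

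*5-HT1A* (FBgn0004168), the other Gi/Go-coupled receptor, was read once in the kept cells. Its position is chromosome 2R, 19067155 to 19121958, plus strand, with 2 annotated transcripts. The kept cells had 0, 1, 0 and 0 reads, and cell D had 588 reads, an expression of 6.92 (6.80 to 7.03). The single read placed cell 2 at 0.37 (0.01 to 1.39), which is 0.00242 times the RPM of cell D (6.12e-05 to 0.0135). *5-HT1A* was at least 156-fold, 162.6-fold and 177-fold lower in cells 1, 3 and 4 than in cell D.

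The genes for 5-HT1A and 5-HT1B are neighbors on chromosome 2R that point away from each other, separated by 34.5 kb with 3 other genes annotated in between. In cell 2, 60 reads lay on *5-HT1B* and 1 on *5-HT1A*, while in cell D both were above 6 on the log2 scale. Both *5-HT1A* and *5-HT2B* were below 1 RPM in all kept cells and above it in cell D. Of all genes, 6.26% had this pattern.

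*5-HT7* (FBgn0004573), the Gs-coupled receptor, was found in the kept cells where the other receptor genes stayed below 1 RPM. Its position is chromosome 3R, 30968236 to 31016875, minus strand, with 2 annotated transcripts. It had 103, 0, 14 and 0 reads in cells 1 to 4 and 87 reads in cell D. Cell 1 was at 4.77 (4.49 to 5.04) and cell 3 at 2.15 (1.52 to 2.76), with cell D at 4.23 (3.92 to 4.51) between them. The 14 reads in cell 3 are those of STAR, and MMQuant gave none there. In RPM, the level was 1.49 times that of cell D in cell 1 (1.11 to 2.00) and 0.194 times in cell 3 (0.102 to 0.343). Cells 2 and 4, with 0 reads, were at least 20.4-fold and 26.2-fold lower than cell D. The mean over the kept cells was 1.73 ± 2.27 (SD, n = 4) and 0.72 without cell 1.

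In no kept cell did *5-HT7* reach 1 RPM together with *5-HT2A* or *5-HT1B*. With 4 cells this is a description of these libraries. Cell 1, which had *5-HT7* as its receptor, was also the cell with the fewest neuronal genes, and cell 3, the other cell with *5-HT7*, was the cell rich in *Dh44*. In cell 3 the 14 reads of *5-HT7* made up the whole of the reads on the 5 receptor genes, against 538167 reads on *Dh44* alone. In cell 1, 103 of 104 receptor reads were on *5-HT7* (99.0%, exact Clopper-Pearson 95% interval 94.8% to 99.98%). In cell 4, 732 of 739 were on *5-HT2A* (99.1%, 98.1% to 99.6%). Cell 2 was mixed, with 242 of 303 on *5-HT2A* (79.9%, 74.9% to 84.2%) and 60 on *5-HT1B* (19.8%, 15.5% to 24.7%).

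The total of reads on the 5 genes also differed between the cells. It was 26.6, 87.8, 3.43 and 166 RPM in cells 1 to 4, compared with 375 RPM in cell D. This order was not that of the neuronal genes, for which cell 3 had the highest sum of the kept cells. In all 5 libraries it was the order of the number of expressed genes, 4134, 6022, 3097 and 6118 in cells 1 to 4 and 7110 in cell D. Among cells 1 to 4 it was also the order of the photoreceptor and the glial sums, while cell D, with the highest receptor total, had the lowest photoreceptor sum and a glial sum between those of cells 1 and 2. The part of these cell types, or of the number of expressed genes, in the totals was not tested.

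To compare the receptor genes with each other, RPM was divided by the length of all annotated exons of a gene, which is 4.03 kb for *5-HT1B*, 4.49 for *5-HT7*, 5.02 for *5-HT1A*, 5.41 for *5-HT2A* and 6.33 for *5-HT2B*. Because the amplification favors the 3' ends of transcripts strongly, the division by length is an approximation. In cell 2, *5-HT2A* was at 12.96 RPM per kb (11.4 to 14.7) and *5-HT1B* at 4.32 (3.30 to 5.56). In cell 4, *5-HT2A* was at 30.5 RPM per kb (28.3 to 32.7) and *5-HT1B* at 0.391 (0.157 to 0.806). *5-HT2A* was thus ahead of *5-HT1B* beyond counting error in both cells that had them. *5-HT7* was at 5.86 RPM per kb (4.79 to 7.11) in cell 1 and 0.765 (0.418 to 1.28) in cell 3. In cell D, *5-HT2B* at 26.1 (24.4 to 28.0) and *5-HT1A* at 23.8 (22.0 to 25.9) could not be told apart by their intervals. Before the division by length their intervals did not overlap, at 165 RPM (154 to 177) for *5-HT2B* and 120 RPM (110 to 130) for *5-HT1A*. Per kb, *5-HT1B* followed at 15.8 (14.1 to 17.6), *5-HT7* at 3.95 (3.16 to 4.87) and *5-HT2A* at 1.62 (1.17 to 2.18). *5-HT2A* was therefore first in cells 2 and 4 and last in cell D.

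**Figure D2:**
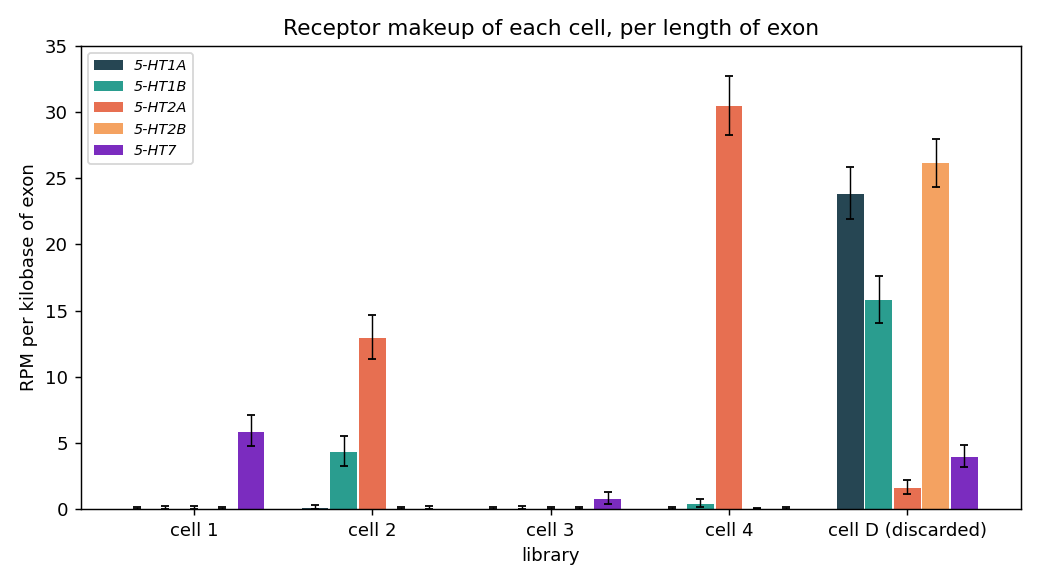
RPM per kilobase of exon of the 5 serotonin receptor genes in PI cells 1 to 4 and cell D. Bars are single libraries and error bars are exact Poisson 95% intervals. *5-HT2A* led in cells 2 and 4, at 12.96 and 30.5, and *5-HT2B* and *5-HT1A* in cell D, at 26.1 and 23.8.

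The libraries were unstranded, so reads of a receptor gene and of any antisense transcript there could not be told apart. Of the *5-HT2A* reads, 56.6% in cell 2 and 55.5% in cell 4 fell on the first of STAR's strand columns, against 54.9% and 55.2% of all gene reads in those libraries. For *5-HT7* it was 64.1% of 103 reads in cell 1 and 64.3% of 14 reads in cell 3. All gene reads were at 54.4% and 57.1% in those 2 libraries. These differences were not tested. No exon of another gene shares a base with an exon of the 5 receptor genes in the annotation used here, which is later than that of the authors, and no group of overlapping genes in the MMQuant tables held any of them. *CG43351*, on the opposite strand within the span of *5-HT1B*, had 612, 389, 0 and 162 reads in cells 1 to 4 and 21 in cell D. *5-HT1B* had 1 read in cell 1 in the stranded counts that the unstranded count did not give to it.

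MMQuant, the second counting tool of the authors, gave values close to those of STAR for most receptor genes. *5-HT2A* had 234 and 706 MMQuant reads in cells 2 and 4, *5-HT1B* had 59 and 6, and *5-HT7* had 106 in cell 1. The exception among the kept cells was *5-HT7* in cell 3, with 14 reads by STAR and none by MMQuant, so *5-HT7* was expressed in 1 kept cell in place of 2 under that count. In the same library, 21 of the 2816 genes with at least 10 STAR reads had no MMQuant read, alone or shared. In cell D, MMQuant gave *5-HT2B* 632 reads, which is 77.7% of STAR's 813. *5-HT1A* had 582 MMQuant reads in cell D, *5-HT1B* had 277, *5-HT7* had 76 and *5-HT2A* had 42.

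**Figure D3:**
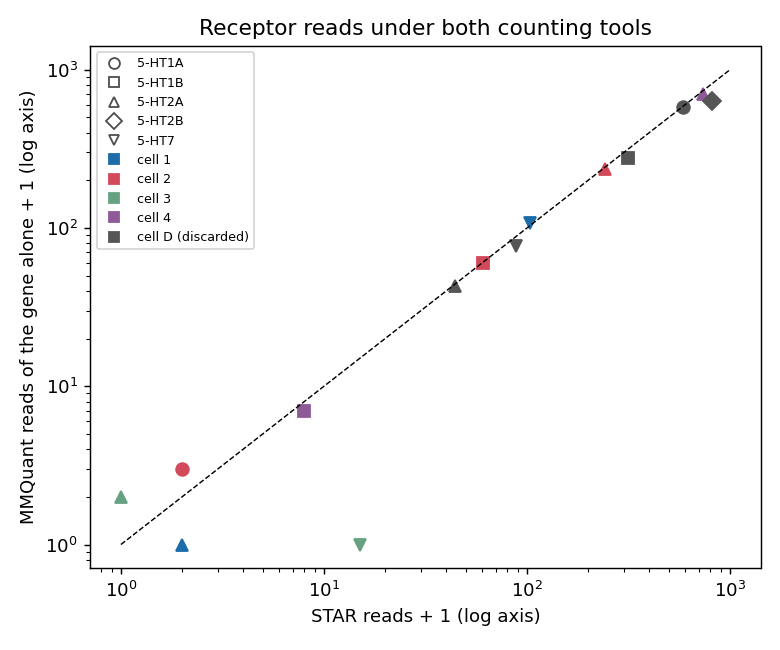
Reads of each serotonin receptor gene by STAR (x axis) and by MMQuant for the gene alone (y axis), each plus 1, on log axes. Shapes are genes, colors are cells and the dashed line marks equal counts. *5-HT7* in cell 3 lies on the floor of the plot, with 14 STAR reads and 0 MMQuant reads, and most other points lie near the line.

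The receptors for the other amines gave a setting for these values. Of 12 receptor genes for dopamine, octopamine and tyramine, 5, 6, 5 and 6 were expressed in cells 1 to 4 and 11 in cell D. Of all genes, 23.7%, 34.5%, 17.7% and 35.1% were expressed in cells 1 to 4 and 40.7% in cell D. The median expression of the 12 genes was 0.33, 1.93, 0.69 and 1.21 in cells 1 to 4 and 7.92 in cell D. The median of the 5 serotonin receptor genes was 0, 0.37, 0 and 0 in cells 1 to 4 and 6.01 in cell D, and the median of all genes was 0 in every library. Cell D was thus high in both families, and it also had the largest share of all genes expressed. Of all genes, 22.5% were expressed in 3 or more of the kept cells, and the share for all 4 was not counted. None of the 5 serotonin receptor genes was expressed in 3 or more, which with 5 genes is a description only. Of the 12 other genes, 4 were, and each of these was expressed in all 4 kept cells. These were *Dop2R*, an inhibitory dopamine receptor (5.95 ± 1.98, SD, n = 4), *DopEcR*, a receptor for dopamine and ecdysone (4.64 ± 3.45), and the octopamine receptors *Octβ2R* (7.03 ± 0.83) and *Octα2R* (5.34 ± 1.58). *Octβ2R*, which raises cAMP, was at 5.98, 6.89, 7.31 and 7.95 in cells 1 to 4 and 8.21 in cell D. The difference between the families was not tested.

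**Figure D4:**
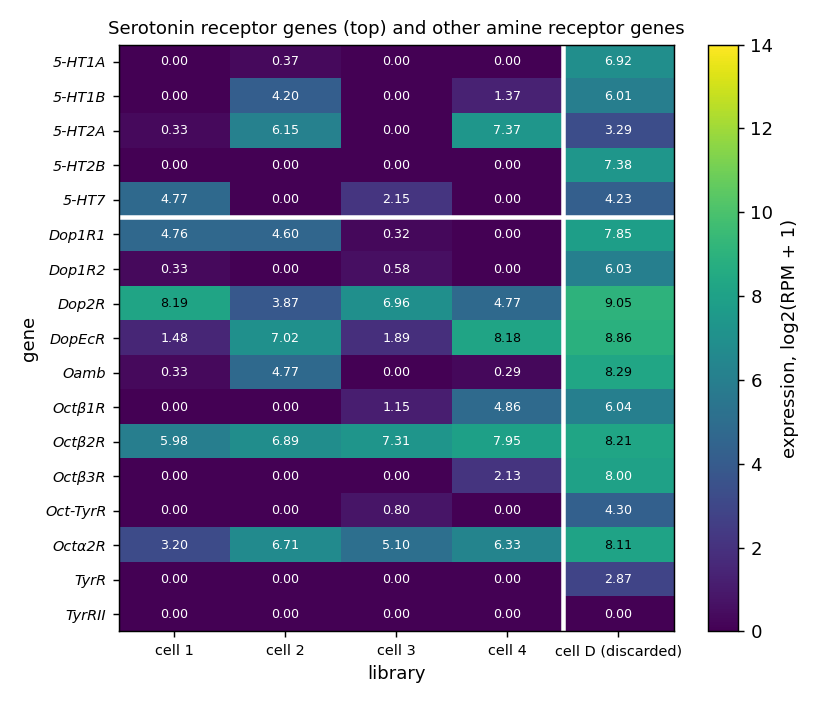
Expression, as log2(RPM + 1), of the 5 serotonin receptor genes (top) and 12 receptor genes for other amines in PI cells 1 to 4 and cell D, with each value printed in its tile. *Octβ2R* was at 5.98 or more in every cell, and no serotonin receptor gene was expressed in more than 2 of the kept cells. Of all genes, 22.5% were expressed in 3 or more of the kept cells.

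The genes whose pattern over the 5 libraries was closest to that of a receptor gene were found by the root mean square difference of log2(RPM + 1), for the 3 receptor genes expressed in a kept cell. For *5-HT1B* they were *ash1* (0.23), *Mgtor* (0.27) and *MCU* (0.28). For *5-HT2A* they were *Ask1* (0.44), *how* (0.53) and *CG12730* (0.54), and for *5-HT7* they were *Pop1* (0.66), *CG9344* (0.77) and *mRpS25* (0.86). For these 3 genes, the closest of the other amine receptors were *Oamb* for *5-HT1B* (1.16), *Oct-TyrR* for *5-HT7* (2.22) and *DopEcR* for *5-HT2A* (2.74). Among all genes these ranked only 249, 517 and 1518, in the same order, so none was a close match. The search was not run for *5-HT1A* and *5-HT2B*. With 5 libraries, such likeness is a description only.

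Genes for making and handling serotonin were read in part. *Trhn*, the neuronal tryptophan hydroxylase that commits a cell to serotonin synthesis, had 0 reads in each of cells 1 to 4 and 5 reads in cell D. *SerT*, the serotonin reuptake transporter, had 68 reads in cell 3, an expression of 4.14, and 0 in each other library, cell D included. *Ddc*, the decarboxylase shared by serotonin and dopamine synthesis, was at 5.84, 6.98, 2.37 and 4.53 in cells 1 to 4 and 9.38 in cell D. *Vmat*, which loads amines into vesicles, was at 6.80, 5.92, 3.18 and 3.90 in cells 1 to 4 and 3.66 in cell D. *Hn*, the phenylalanine hydroxylase, was at 8.18 ± 1.06 (SD, n = 4) in the kept cells and 3.43 in cell D. *Pu*, which makes the pterin cofactor of these hydroxylases and also serves eye pigment synthesis, was at 6.58, 8.94, 2.44 and 10.32 in cells 1 to 4 and 5.07 in cell D. Of the 6 genes, 4, 4, 5 and 4 were expressed in cells 1 to 4, against 23.7%, 34.5%, 17.7% and 35.1% of all genes. In cell D, 5 of the 6 were expressed, against 40.7% of all genes. With the stranded counts summed, 5 were expressed in each of cells 1, 2 and 4, and with MMQuant 5 in cell 4. In each of these cells, 1 of *Trhn* and *SerT* therefore reached 1 RPM under that count and the other did not. Which of them it was is not given here, so the zero of only 1 of the 2 genes in a cell depended on the counting.

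Genes of the G protein pathways through which the receptors act are given next, beside the shares of all genes expressed in the same cells, 23.7%, 34.5%, 17.7% and 35.1% in cells 1 to 4 and 40.7% in cell D. No difference between these lists and the receptor genes was tested. *Gαq*, the partner of 5-HT2A and 5-HT2B, was at 5.55, 6.98, 7.09 and 8.72 in cells 1 to 4 and 8.91 in cell D. Of 8 genes of Gq and calcium signaling, 5, 8, 6 and 8 were expressed in cells 1 to 4 and 8 in cell D. *Itpr*, the IP3 receptor that releases stored calcium, was at 5.71 in cell 2 and 6.35 in cell 4, the cells with *5-HT2A*, had 0 reads in cell 1 and 4 reads in cell 3, and was at 5.91 in cell D. *Plc21C*, a phospholipase C, had 0 reads in cell 1 and was at 6.12, 8.07 and 4.20 in cells 2 to 4 and 9.39 in cell D. *norpA*, the phospholipase C of phototransduction, was at 9.68, 9.48, 2.44 and 10.91 in cells 1 to 4 and 9.58 in cell D. *inaC*, the protein kinase C of the eye, was at 7.19, 6.29, 1.31 and 7.31 in cells 1 to 4 and 1.15 in cell D. The photoreceptor sums of the same libraries are given above.

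*Gαs*, the partner of 5-HT7, was at 2.02, 4.20, 3.73 and 6.44 in cells 1 to 4 and 8.52 in cell D, and its lowest kept values were those of cells 1 and 3, the cells with *5-HT7*. The value in cell 1 rests on 12 reads. Of 14 genes of Gs and cAMP signaling, 10, 13, 9 and 12 were expressed in cells 1 to 4 and 14 in cell D. The calcium-dependent adenylyl cyclase *rut* had 0 reads in cell 1 and was at 4.08, 6.77 and 5.24 in cells 2 to 4 and 4.33 in cell D. The cyclase *Ac13E* was at 5.86, 7.56 and 7.38 in cells 1, 2 and 4, with a single read in cell 3, and at 7.04 in cell D. The catalytic subunit of protein kinase A, *Pka-C1*, was at 8.46, 8.37, 6.29 and 8.85 in cells 1 to 4 and 9.50 in cell D, and the cAMP phosphodiesterase *dnc* at 6.78, 8.50, 9.03 and 8.90 in cells 1 to 4 and 10.81 in cell D.

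*Gαo*, a partner of 5-HT1A and 5-HT1B, was the most even of the α subunits, at 7.43, 6.59, 7.88 and 7.94 in cells 1 to 4 (7.46 ± 0.62, SD, n = 4) and 10.32 in cell D. *Gαi* had 0 reads in cell 3, against 4.05, 2.64 and 6.15 for cells 1, 2 and 4, and reached 3.68 in cell D. Of 10 genes of Gi/Go signaling, 7, 10, 5 and 9 were expressed in cells 1 to 4 and 9 in cell D. Among the inward rectifier potassium channels on this list, *Irk2* was expressed in all 4 kept cells, at 1.93, 6.96, 6.95 and 8.58, and at 5.95 in cell D. Of the genes for receptor desensitization, the receptor kinase *Gprk2* (5.90 ± 0.48, SD, n = 4) and the arrestin *krz* (6.39 ± 1.86) were expressed in all 4 kept cells and at 6.19 and 6.79 in cell D. *Gprk1* had 0 and 4 reads in cells 1 and 3, expression of 5.27 and 4.12 in cells 2 and 4, and 6.96 in cell D.

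**Figure D5:**
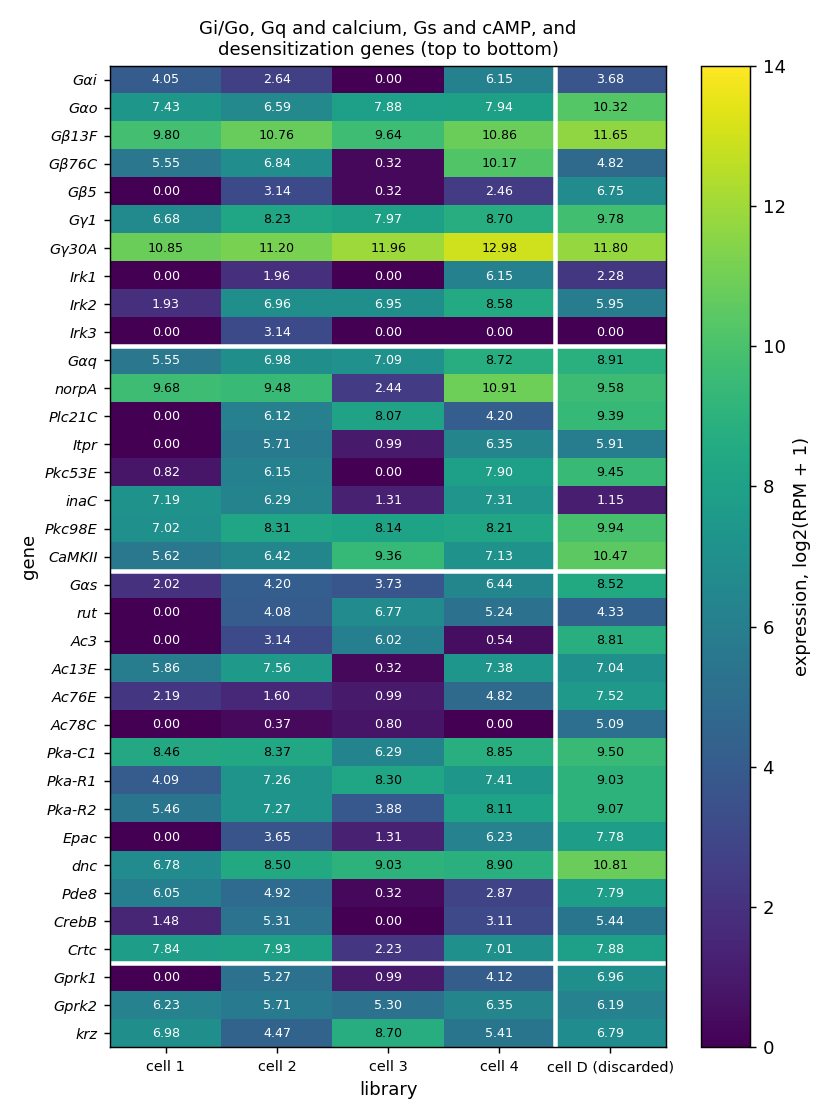
Expression, as log2(RPM + 1), of genes of Gi/Go signaling, Gq and calcium signaling, Gs and cAMP signaling and receptor desensitization, from top to bottom, in PI cells 1 to 4 and cell D, with each value printed in its tile. *Gαo* and *Gαq* were expressed in every library, while *Itpr* was at 5.71 and 6.35 in cells 2 and 4 and below 1 RPM in cells 1 and 3.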

How the data were processed

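The authors amplified the RNA of each cell in 3 rounds, trimmed 100-base reads with Trim Galore and PRINSEQ and mapped them to dm6 with STAR, using BDGP6 annotation release 87. The deposited counts are whole reads per gene, without normalization, from STAR (unstranded and for each strand) and from MMQuant. Reads that STAR assigned to no gene were 45.8% to 62.6% of a library and stayed out of the denominator. The number in the header of an MMQuant column is not always that of its cell, and each file was used for the sample it was deposited under. RPM, the pseudocount of 1 RPM and the threshold of 1 RPM follow the methods of the study. Symbols were matched to identifiers, and 1 of the 102 listed symbols, *FASN1*, was not matched. Positions are from Ensembl release 115 (BDGP6.54, dm6 coordinates). No sequence is printed.

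The receptor genes, gene lists and settings were chosen with earlier results of these data known. Named genes are the receptors, genes of the lists and, by rule, the 3 genes nearest in pattern to each receptor expressed in a kept cell, plus the nearest other amine receptor. *CG43351* was named after its values were seen. The search for nearest genes was run on simulated data that held noisy copies of each receptor gene's own counts. That checks the search only and cannot show whether the named genes are alike beyond chance. No differential test was run. Other settings tried were a denominator of all uniquely mapped reads, the summed stranded counts, MMQuant reads alone or with shared reads, a threshold of 10 RPM or of 1 read, a pseudocount of 0.1 RPM, cell D included, and each kept cell left out in turn. Python 3.11.15, numpy 2.4.6, pandas 2.3.3, scipy 1.17.1 and matplotlib 3.10.9 were used.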

Additional observations from a re-analysis of the deposited data

Results flagged for a closer look

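Among 51 genes of the serotonin receptor, amine receptor and signaling lists, 9 had 1 kept cell far from the other 3, meaning that its gap to the nearest cell, as a share of the range over the 4 cells, passed Dixon's 95% critical value. Chance flags about 1 in 20 groups, and a gene with reads in a single cell meets this limit whatever its level. Of the serotonin receptor genes, *5-HT1A* did so in cell 2, at 0.37, on 1 read and below the threshold. In the unstranded counts, the genes read mainly in 1 kept cell were *SerT* in cell 3 (4.14, 68 reads), *Oamb* in cell 2 (4.77, 91 reads), *Octβ3R* in cell 4 (2.13, 15 reads) and *Irk3* in cell 2 (3.14, 27 reads). The study marks the value of *Irk3* in cell 3 as possibly too low, because of reads shared with an overlapping gene. The genes with 1 low cell were *norpA* (2.44), *inaC* (1.31) and *Crtc* (2.23), each in cell 3, and *Pkc98E* in cell 1 (7.02).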

How the results depend on the processing

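The number of receptor genes expressed in at least 1 kept cell was 3 under every alternative run for it except when any read was counted, which gave 4. With a denominator of all uniquely mapped reads, *5-HT1B* was expressed in 1 kept cell in place of 2 and cell 4 expressed 1 receptor gene in place of 2. With MMQuant, with or without shared reads, *5-HT7* was in 1 kept cell in place of 2 and cell 3 expressed 0 receptor genes in place of 1. At 10 RPM, *5-HT1B* and *5-HT7* were in 1 kept cell each, cell 3 had 0 and cell 4 had 1 receptor gene, and cell D had 4 in place of 5. With any read counted, *5-HT1A* was in 1 kept cell and *5-HT2A* in 3 in place of 2, and cells 1 and 2 had 2 and 3 receptor genes in place of 1 and 2. The stranded sum changed no count of receptor genes or cells. When 1 kept cell was left out, *5-HT1B*, *5-HT2A* and *5-HT7* were each in 1 to 2 cells. The mean of *5-HT1A* was 0.49 as log2((RPM + 0.1)/0.1), and with cell D included the means of *5-HT1A* and *5-HT2B* were 1.46 and 1.48. Under the other settings run for the means, each moved by less than its SD. No paired analysis was possible because there is 1 condition. The values above 0 that rest on 14 reads or fewer are *5-HT1A* in cell 2 and *5-HT2A* in cell 1, with 1 read each, *5-HT1B* in cell 4 with 7 and *5-HT7* in cell 3 with 14.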
